A study of Rattus norvegicus with 9 samples.

Results

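Krt19, Krt7, Epcam, Sox9, Cd24, Spp1, Prom1 and Cftr are genes used to recognise bile duct cells and the progenitor-like cells of the ductular reaction. They were found by gene name in the deposited table, where each of the 8 has 1 row among 32883 genes. Liver RNA was sequenced from 9 male Sprague-Dawley rats, with 1 library per rat and 3 rats in each of 3 groups named DEN model (M), PZH administration (G) and normal control (N). The DEN model rats were injected with diethylnitrosamine (DEN), a liver carcinogen, at 0.01% once a week on a schedule of 16 weeks. The PZH administration rats had the same injections and were also given Pien-Tze-Huang (PZH), a traditional Chinese patent medicine, at a dose not given for the sequenced rats, and the normal control rats ate a normal diet. When each sequenced rat was killed is not given either, so a difference between groups in age or in length of injury cannot be told apart from the treatment. One deposited tag gives PZH as the treatment of M and G rats alike, so the groups were read from the first letter of the rat names.

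The ductular reaction is a response of injured liver in which cells with bile duct features multiply at the edge of the portal tracts. In rats treated with carcinogens, small cells of this kind are known as oval cells. Adult hepatocytes normally carry little of the keratins and adhesion molecules that line the bile ducts, and for this reason those genes are used as markers. Several of the markers are not restricted to ducts: Spp1 is also made by macrophages, Cd24 by blood cells, and Epcam, Cftr and Prom1 by gut epithelium.

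Total counts were 14922973 to 16641954 in 8 of the 9 libraries and 27161496 in rat G27. Levels are CPM, each gene's counts relative to library size, after TMM scaling, a correction for library composition, and 3 counts correspond to 0.125 to 0.252 CPM. Scaling by library totals alone would have moved the median log2 fold change over all tested genes by 0.86 for DEN model against normal control rats, by -0.67 for PZH administration against DEN model rats and by 0.23 for PZH administration against normal control rats. Calls rest on the quasi-likelihood test of edgeR on the 6 rats compared, at a p under 0.05 after Benjamini-Hochberg adjustment across every gene tested. All 8 genes had enough counts to be tested in every comparison.

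All 8 markers rose in the DEN model group, with no overlap between the rats of both groups for any of them. Of all 14255 tested genes, 25.3% were called higher in this comparison, and 31.4% had DEN model rats all above the normal control rats. The median log2 fold change was 5.74 over the 8 genes and 0.03 over all tested genes. After PZH administration all 8 were lower than in the DEN model group, against 10.3% of 14272 tested genes called lower and 22.5% with every PZH administration rat below every DEN model rat. The median log2 fold change there was -2.37 over the 8 genes and 0.01 over all tested genes. The 8 genes also stayed above the normal control level in the PZH administration rats, against 4.07% of 13348 tested genes called higher and 13.6% lying wholly above, with medians of 3.42 over the 8 and -0.02 over all. The comparisons share their DEN model, normal control or PZH administration rats, so they are not independent of one another. The 8 genes were chosen with earlier results of these data known, so the shares of all genes are no independent yardstick. In whole liver RNA, fewer cells of a type and less RNA per cell cannot be told apart.

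**Figure D1:**
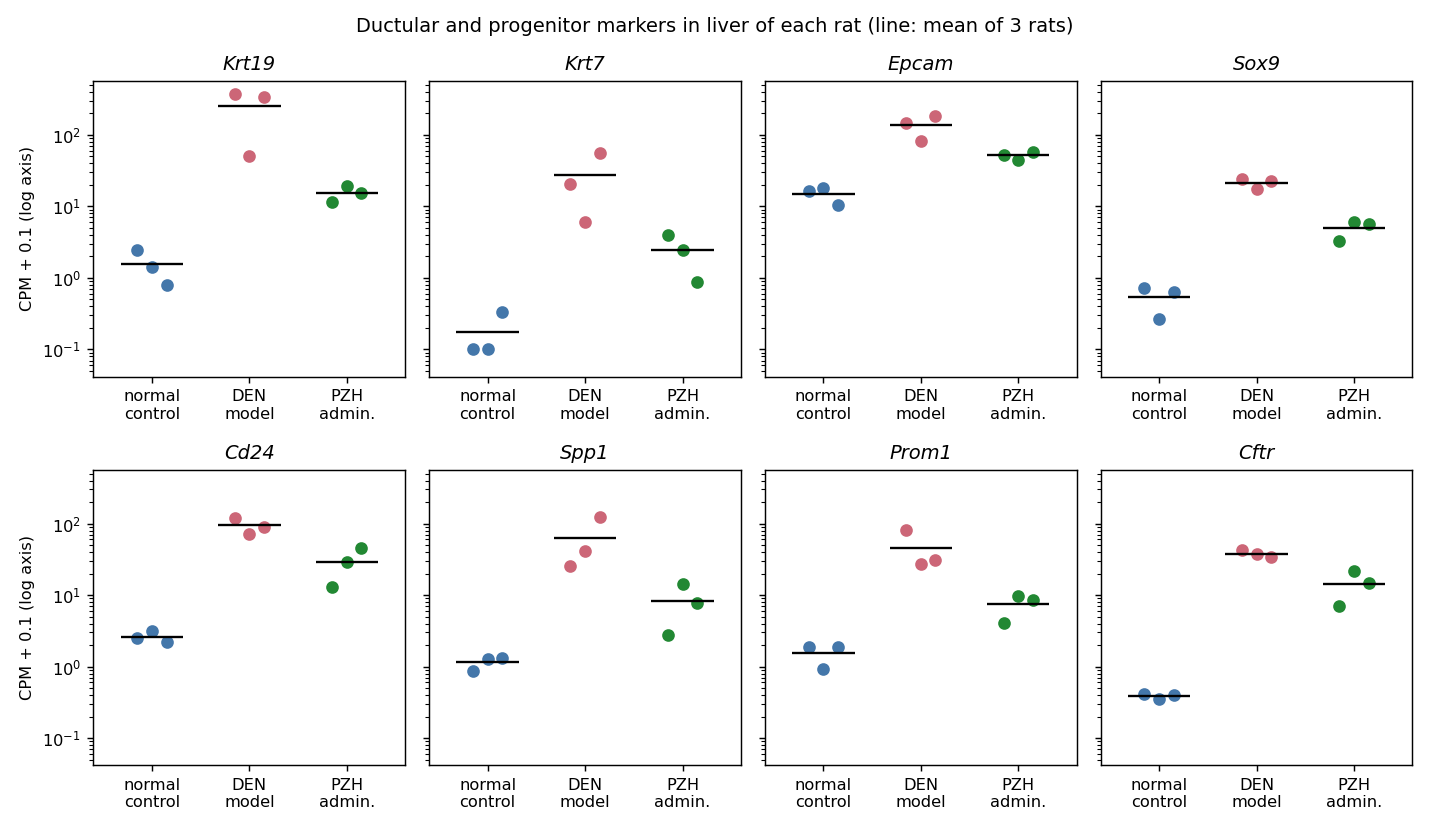
Level of each of the 8 markers in every rat, as CPM + 0.1 on a log axis, with 1 point per rat and a line at the mean of 3 rats. In every panel the DEN model points lie above the PZH administration points, which lie above the normal control points.

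Krt19 and Krt7 encode keratins of the bile duct lining, part of the filament skeleton of simple epithelia. Krt19 (10:88055841-88060561 in the coordinates of the authors' file, whose build is not given in the sources used here) was at 2.34, 1.34 and 0.687 CPM in normal control rats N1, N3 and N12. It was at 367, 51.0 and 334 CPM in DEN model rats M13, M17 and M24, and at 11.4, 19.3 and 15.2 CPM in PZH administration rats G27, G28 and G42. Rat M17 stood well below the other DEN model rats and still above all PZH administration rats. The log2 fold change of Krt19 was 7.44 (95% interval 5.49 to 9.39, edgeR adjusted p = 0.000406) in the DEN model group. Against that group it fell by 4.01 on the log2 scale after PZH (95% interval -5.58 to -2.45, edgeR adjusted p = 0.0125), the largest fall among the 8.

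Krt7 (7:143059764-143075907) was nearly absent from normal liver, with 0, 0 and 3 counts in the 3 normal control rats. The DEN model rats had 20.3, 5.89 and 56.4 CPM and the PZH administration rats 3.84, 2.37 and 0.783 CPM. Its level differed 9.57-fold between the lowest and the highest DEN model rat, the widest spread of the 8 genes in that group. From summed counts, the DEN model level was 363 times the normal level (exact 95% interval 124 to 1762, counting error only) and the PZH administration level 32.8 times (10.997 to 161). The fitted fold changes against normal rats depend on how a near-zero level is handled, and the adjusted p from edgeR was 0.00103 for the DEN model group and 0.0307 for PZH administration rats. Compared with the DEN model group these rats had a Krt7 log2 fold change of -3.49 (95% interval -5.42 to -1.56, edgeR adjusted p = 0.0268).

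Epcam, Cd24 and Prom1 encode surface proteins of epithelial and progenitor cells. EPCAM is a cell adhesion molecule, CD24 a small glycoprotein anchored in the membrane, and prominin 1 (CD133) a protein of membrane protrusions. Epcam (6:11281964-11298216) was the one marker with a clear level in normal liver, at 16.6, 18.1 and 10.4 CPM. It reached 146, 82.1 and 185 CPM in the DEN model rats and 53.0, 44.1 and 58.1 CPM in the PZH administration rats. With a log2 fold change of 3.22 (95% interval 2.43 to 4.004, edgeR adjusted p = 0.000317), it rose least of the 8 genes in the DEN model group. After PZH its log2 fold change was -1.39 (95% interval -2.08 to -0.70, edgeR adjusted p = 0.0203).

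Cd24 (20:48335540-48340846) was at 2.42, 3.02 and 2.14 CPM in normal control rats, 121, 71.9 and 90.4 CPM in DEN model rats and 12.7, 28.9 and 45.6 CPM in PZH administration rats. Its DEN model rats lay within 1.68-fold of each other, while its PZH administration rats spread over 3.58-fold. The log2 fold changes were 5.24 (95% interval 4.62 to 5.86, edgeR adjusted p = 1.96e-05) in the DEN model group and -1.68 (-2.65 to -0.72, edgeR adjusted p = 0.0295) after PZH. How reads that match several near-identical copies were counted is not given in the sources used here, so the Cd24 level is uncertain.

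Prom1 (14:71533063-71637417) was at 1.80, 0.839 and 1.76 CPM in normal control rats and at 80.6, 26.7 and 31.0 CPM in DEN model rats. The PZH administration rats had 3.93, 9.74 and 8.33 CPM. Rat M13 was the high one for this gene, above both other DEN model rats by more than their distance from each other. The log2 fold changes were 4.98 (95% interval 3.79 to 6.17, edgeR adjusted p = 0.000291) in the DEN model group and -2.64 (-3.79 to -1.50, edgeR adjusted p = 0.0151) after PZH.

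Sox9 (10:101288489-101293379) encodes a transcription factor of bile duct and progenitor cells. It was at 0.625, 0.168 and 0.534 CPM in normal control rats, which is 17 counts in all, and at 24.3, 17.2 and 22.4 CPM in DEN model rats. The PZH administration rats had 3.16, 5.99 and 5.63 CPM, and the groups stood apart, with the normal control rats, at 2 to 8 counts each, spread over 3.72-fold and the DEN model rats over 1.41-fold. Its log2 fold change was 5.57 (95% interval 4.71 to 6.43, edgeR adjusted p = 5.42e-05) in the DEN model group. After PZH it was -2.102 (-2.76 to -1.45), with the lowest edgeR adjusted p of the 8 in that comparison, 0.00891.

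Spp1 (14:6673686-6679901) encodes osteopontin, a secreted matrix protein that binds integrins and CD44. Its level was 0.781, 1.17 and 1.22 CPM in normal control rats, 25.03, 41.5 and 124 CPM in DEN model rats and 2.65, 14.3 and 7.55 CPM in PZH administration rats. Rat M24 was the high one here and M13 the low one, another order than for the keratins. Spp1 had log2 fold changes of 5.92 (95% interval 4.37 to 7.46, edgeR adjusted p = 0.000406) in the DEN model group and -2.96 (-4.64 to -1.27, edgeR adjusted p = 0.0292) after PZH.

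Cftr (4:42692836-42860676) encodes the chloride channel through which bile duct cells respond to secretin. It had 4, 3 and 4 counts in the normal control rats, or 0.312, 0.252 and 0.305 CPM. The DEN model rats had 42.1, 37.3 and 34.0 CPM, the tightest group of the 8 genes with a coefficient of variation of 10.8%. The PZH administration rats had 6.87, 21.6 and 14.5 CPM. The log2 fold change of Cftr was 7.00 in the DEN model group (95% interval 6.42 to 7.59, edgeR adjusted p = 9.07e-06). After PZH its log2 fold change was -1.39 (-2.22 to -0.56, edgeR adjusted p = 0.0339), which left it 44.7 times above the normal control level by summed counts (exact 95% interval 24.8 to 89.98, counting error only). In the fit against normal control rats its log2 fold change was 5.58 (95% interval 4.37 to 6.80, edgeR adjusted p = 0.00218), rank 38 from the top among 13348 genes.

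The sequence before the gene start was looked up for the 8 genes, since they moved together, and RefSeq (build GRCr8) gave it for 5 of them, Cftr, Epcam, Spp1, Cd24 and Prom1, the last with 2 starts. The 250 bases before the start are shown for the gene with the highest normal level, the secreted protein and the channel that stayed highest against normal liver after PZH. Capitals mark letters of motifs searched on both strands, which were TEAD (GGAATG), RBPJ (TGGGAA), AP-1 (TGANTCA), SOX (ACAATG) and the TATA box (TATAAA). Matches of the RBPJ and TEAD letters can overlap.
Epcam (chr6:12649679-12649928, minus strand): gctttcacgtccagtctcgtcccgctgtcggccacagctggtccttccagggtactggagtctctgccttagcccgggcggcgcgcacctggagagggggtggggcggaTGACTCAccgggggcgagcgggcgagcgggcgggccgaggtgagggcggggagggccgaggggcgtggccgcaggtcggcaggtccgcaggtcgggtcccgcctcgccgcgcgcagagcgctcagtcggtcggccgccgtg
Spp1 (chr14:5619805-5620054, minus strand): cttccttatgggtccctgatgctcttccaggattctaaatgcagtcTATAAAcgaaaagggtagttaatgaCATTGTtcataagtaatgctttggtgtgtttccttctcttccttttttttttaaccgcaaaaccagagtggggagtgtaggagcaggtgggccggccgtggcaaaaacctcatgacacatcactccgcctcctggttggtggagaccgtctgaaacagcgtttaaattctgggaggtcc
Cftr (chr4:47527379-47527628, plus strand): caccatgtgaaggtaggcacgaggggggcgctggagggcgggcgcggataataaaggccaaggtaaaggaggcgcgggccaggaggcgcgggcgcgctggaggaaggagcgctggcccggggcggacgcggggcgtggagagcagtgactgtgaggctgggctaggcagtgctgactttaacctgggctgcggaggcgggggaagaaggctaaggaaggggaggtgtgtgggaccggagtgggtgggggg
The Epcam window holds 1 AP-1 match, TGACTCA, from 141 to 135 bases before the start, and AP-1 letters occur in 6.34% of 33469 promoter windows of the same length. Another AP-1 match lies before 1 of the 2 Prom1 starts. The Spp1 window holds TATA letters from 204 to 199 bases and SOX letters from 179 to 174 bases before the start. These letters occur in 12.9% and 11.1% of all windows. The TEAD and RBPJ letters are in 0 of the 6 windows, and in 12.1% and 22.1% of all windows. GC content was 75.6% before Epcam and Cd24, 69.2% before Cftr and 46.8% before Spp1, where the median of all windows was 51.2%.

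Levels between genes were compared as deposited FPKM, which takes transcript length into account, by lengths that were not checked. In normal liver Epcam was highest, at 6.61 ± 1.62 FPKM (SD, n = 3), and did not overlap with Cd24 below it (1.05 ± 0.136 FPKM). Krt19 (0.817 ± 0.484 FPKM) overlapped with Cd24 above it and with Spp1 (0.342 ± 0.0755 FPKM) below it. Lower still came Prom1, Sox9, Cftr and Krt7, each overlapping with its next neighbour, down to 0.0180 ± 0.0312 FPKM for Krt7. In the DEN model group Krt19 had the highest mean, at 273 ± 198 FPKM, and was followed by Epcam (116 ± 55.3), Cd24 (73.8 ± 25.1), Spp1 (39.4 ± 36.7), Krt7 (12.4 ± 12.4), Prom1 (10.8 ± 7.47), Sox9 (8.996 ± 2.51) and Cftr (7.85 ± 1.26 FPKM). Every neighbouring pair in that order overlapped between rats. In the PZH administration group Epcam was again first, at 26.9 ± 3.99 FPKM, above the range of Cd24 (14.6 ± 8.64 FPKM). Krt19 was at 10.1 ± 2.92 FPKM, Spp1 at 3.16 ± 2.31 FPKM and Krt7 last at 0.615 ± 0.382 FPKM, while Cftr, Sox9 and Prom1 lay between 1.09 and 1.93 FPKM on average and overlapped.

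**Figure D2:**
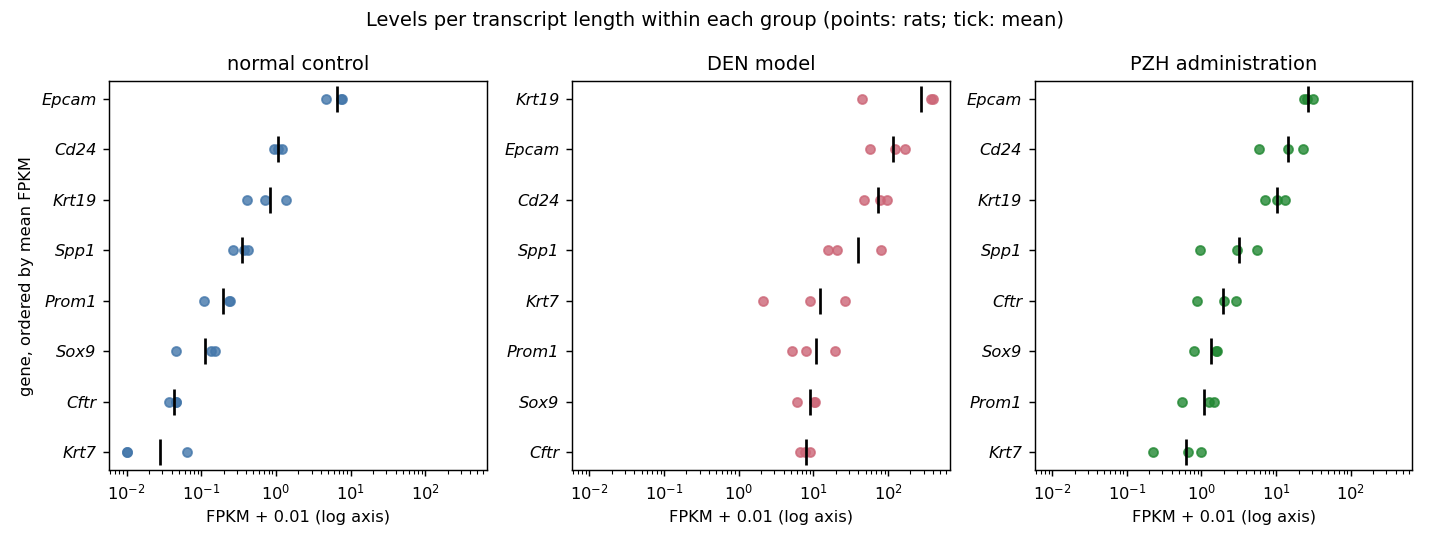
FPKM + 0.01 of each marker on a log axis, with 1 point per rat and a tick at the group mean, genes ordered by mean within each group. Epcam leads at 6.61 FPKM in normal liver and at 26.9 FPKM after PZH, and Krt19 leads at 273 FPKM in the DEN model group with wide overlap below it.

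The rats of a group did not rank alike for all markers. M17 was the lowest DEN model rat for 6 of the 8 genes, with Spp1 lowest in M13 and Cftr lowest in M24. The 8 genes summed to 826 CPM in M13, 334 CPM in M17 and 878 CPM in M24, to 17.2 to 24.9 CPM in normal control rats and to 97.5 to 156 CPM in PZH administration rats. G27, which was also the deepest library, was the lowest PZH administration rat for 6 of the 8 genes and the highest for Krt7. As a ratio within a library, which needs no scaling between libraries, Krt19 to Cftr in FPKM was 43.2 in M13, 6.76 in M17 and 48.7 in M24, and 8.21, 4.42 and 5.19 in G27, G28 and G42. M17 thus lay inside the range of the PZH administration rats for this ratio. Ratios to Cftr were computed for the 7 other genes after their values had been seen. Prom1 to Cftr (0.790 to 2.11 in DEN model rats, 0.497 to 0.635 in PZH administration rats) and Sox9 to Cftr (0.922 to 1.32 against 0.555 to 0.920) did not overlap between groups, and the other 5 did. The two-sided exact permutation p was 0.1 for these 2 ratios, the smallest that 3 rats against 3 allow, and 0.35 after Benjamini-Hochberg adjustment over the 7.

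**Figure D3:**
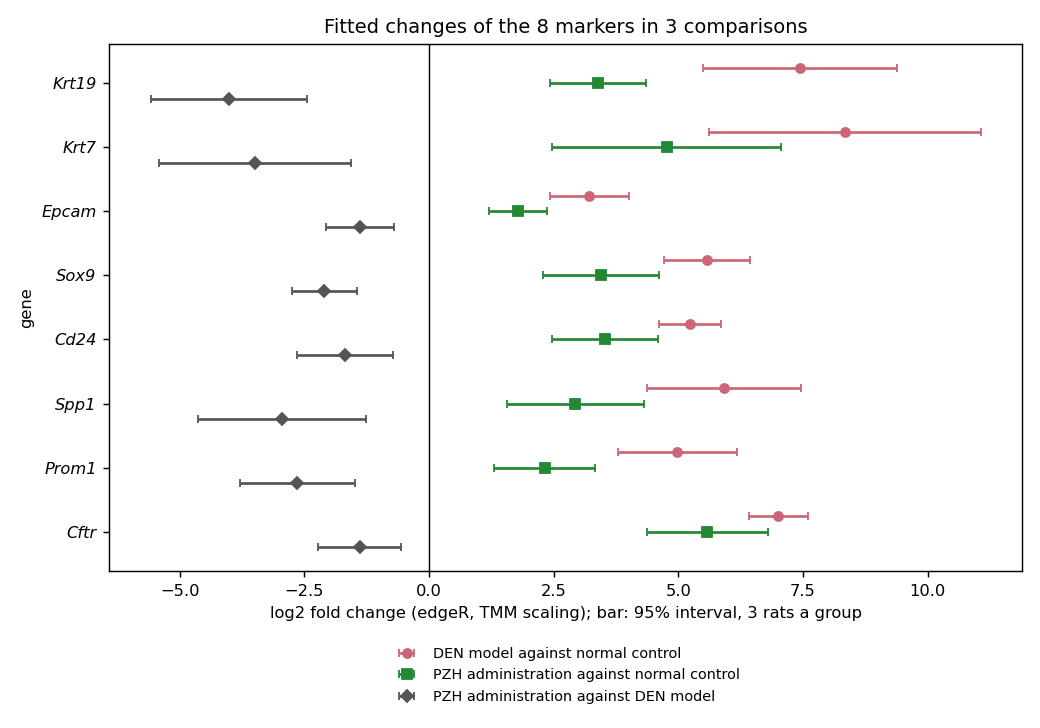
Fitted log2 fold changes of the 8 markers in the 3 comparisons, with 95% intervals from edgeR on 3 rats a group. The PZH administration values against the DEN model lie between -4.01 and -1.39, and all intervals stay off 0.

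A stricter pair of limits takes only genes with a log2 fold change beyond 2 in size and an unadjusted P under 0.001. By these limits all 8 genes passed in the DEN model group, where 8.81% of tested genes passed as higher. After PZH, Krt19, Sox9 and Prom1 passed as lower, against 1.35% of tested genes, and 6 of the 8, all but Krt7 and Epcam, passed as higher than in normal control rats, against 2.16%. The calls in the DEN model group held when any 1 rat was left out, where 19.4% to 24.9% of all tested genes were called higher. After PZH the number called depended on which rats were kept: with edgeR, 3 of the 8 were lower without M13 and 3 without M24, 4 without G42, 5 without G28, 6 without G27 and all 8 without M17. The number of all genes called, 2722 with every rat, went to 271 without M13 and 725 without M24. The share of all tested genes called lower was 1.05% without M13, 3.1% without M24 and 4.02% without G42. It was 4.51% without G28, 7.99% without G27 and 11.7% without M17. Krt19, Sox9 and Prom1 were lower in each of these 6 fits, with a highest adjusted p of 0.0482 for Prom1. The 8 log2 fold changes stayed below 0 in every fit, and calls were also lost where the change stayed nearly as large, as for Cftr without M13 (-1.31) or G42 (-1.38) and Epcam without M13 (-1.35). The fitted fold moved by over 1.5 times for Krt7 without M24 (-2.42) or G27 (-4.10), for Spp1 without M24 (-2.02) or G28 (-3.64) and for Prom1 without M13 (-1.97). Against normal control rats the DEN model values moved as much for Spp1 without M24 (4.99), Prom1 without M13 (4.31) and Krt7 without M24 (7.26) or N12 (12.00), without which the normal control rats are all at 0 counts of Krt7.

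Against normal control rats, 5 of the 8 were higher in PZH administration rats without N1, N3, N12 or G28, 6 without G42 and all 8 without G27. The share of all tested genes called higher was 1.19%, 2.31%, 2.1% and 1.34% without N1, N3, N12 and G28. It was 2.29% without G42 and 5.77% without G27. Epcam, Krt19, Sox9, Cd24 and Cftr kept the call in all of these fits. Spp1 had a log2 fold change of 2.93 (95% interval 1.56 to 4.31, edgeR adjusted p = 0.0275) and Prom1 of 2.32 (1.303 to 3.34, edgeR adjusted p = 0.0211), and both lost the call in 5 of the 6 fits. Their log2 fold changes there were 2.25 to 3.03 for Spp1, lowest without G28, and 2.06 to 2.46 for Prom1. Krt7 lost the call without N1, N3, N12 or G28 (edgeR adjusted p = 0.0523 to 0.115), with fitted log2 fold changes of 4.17 without G27 and 8.18 without N12. Krt19, Sox9 and Cd24 had nearly equal log2 fold changes against normal control rats, 3.39, 3.45 and 3.52. As a share of the DEN model mean, the PZH administration mean was 6.09% for Krt19, 8.47% for Krt7, 12.9% for Spp1, 15.9% for Prom1, 23.1% for Sox9, 30.8% for Cd24, 37.5% for Epcam and 37.9% for Cftr.

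A further 46 genes of bile ducts, progenitor cells and signals around them were listed, and 44 of these are in the deposited file. Of these, in DEN model rats, 29 of 41 tested were called higher and 4 lower, against 25.3% and 20.5% of all tested genes, with a median log2 fold change of 2.39. Under library totals the split was 35 higher and 0 lower, against 57% and 6.73% of all tested genes. After PZH 21 of 40 were lower and 0 higher, against 10.3% and 8.72% of all tested genes, and 33 were lower under library totals, against 39.8% of all tested genes. Against normal control rats 15 of 38 stayed higher after PZH and 0 were lower, against 4.07% and 1.15% of all tested genes. The lists were chosen with earlier results of these data known, so the shares of all genes are not an independent yardstick for them.

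Of 7 genes of duct transport and secretion, 6 rose in the DEN model group, against 25.3% of all tested genes. They included Ggt1, the gamma-glutamyl transferase of duct and tumour cells (log2 fold change 6.48), Sctr, the secretin receptor (5.08), and Aqp1, a water channel (1.57). The bicarbonate exchanger gene Slc4a2 was lower (-0.67), a call that was lost under library totals. After PZH, Sctr (-1.99), Ggt1 (-1.42) and Ano1, a chloride channel (-2.66), fell. Aqp1 was at 55.5 CPM in DEN model rats and 69.3 CPM after PZH, and Slc10a2, the bile acid uptake carrier, at 2.81 and 2.68 CPM, neither passing the test.

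Among 13 measured genes of duct structure, 12 rose in the DEN model group, with a median log2 fold change of 5.22, or 3.08 with levels of 0 in normal control rats set to the floor of 3 counts a library. The claudin gene Cldn4, of tight junctions, had 2, 0 and 0 counts in normal control rats, 15.04, 11.1 and 27.8 CPM in DEN model rats and 2.13, 2.09 and 2.85 CPM in PZH administration rats. Krt18, which hepatocytes also make, rose least (log2 fold change 0.996). After PZH 9 of the 13 were lower, against 10.3% of all tested genes. Among them were Cldn7 (-3.16) and Krt20 (-3.80), a listed keratin that is not particular to ducts. Of the 11 tested against normal control rats 6 were still higher, among them Cldn4 and Bicc1, against 4.07% of all tested genes. The transcription factor genes Ehf (6.36), Elf3 (2.94) and Grhl2 (2.104) rose in the DEN model group, and Onecut1 (-1.08) was lower. Ehf (-2.51) and Elf3 (-3.07) then fell after PZH. Under library totals Onecut1 was no longer called lower.

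Of 5 other progenitor genes with enough counts, Gpc3 (log2 fold change 6.32), Ncam1 (5.77) and Cd44, a hyaluronan and osteopontin receptor (4.33), rose in the DEN model group. Afp, the fetal serum protein, was at 206 CPM in M24 but at 8.97 and 14.1 CPM in M13 and M17, within or below the 13.3 to 17.3 CPM of normal control rats, and at 15.9 to 20.2 CPM in PZH administration rats, and did not pass (edgeR adjusted p = 0.0907 for the DEN model group). The signal genes were mixed, with a median log2 fold change of 0.04 over 10 genes in the DEN model group. Ccn2 (2.98), Jag1, a Notch ligand (2.62), Ankrd1 (2.55) and Wwtr1 (1.20) rose, and the Notch targets Hes1 (-0.80) and Hey1 (-2.12) were lower, calls that were lost under library totals. After PZH the same 4 genes that had risen were lower, at log2 fold changes of -2.24, -0.97, -2.24 and -1.06.

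**Figure D4:**
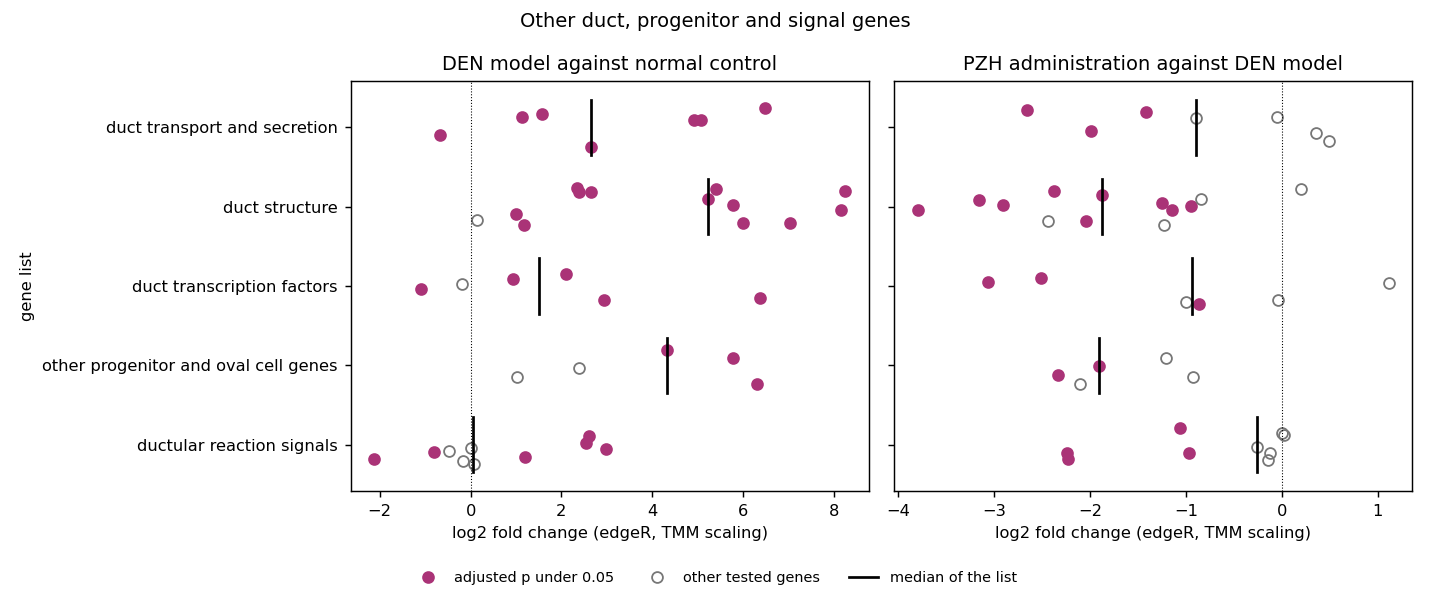
Log2 fold changes of the tested genes of 5 duct, progenitor and signal lists, with filled points for an adjusted p under 0.05 and a line at the median of each list. In the DEN model group the medians run from 0.04 for the signals to 5.22 for duct structure, and after PZH all 5 lie below 0.

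Markers of other cell types changed in the same rats. The 8 hepatocyte genes listed, Alb, Ttr, Apoa1, Hnf4a, Cps1, Tat, Serpina1 and Cyp2e1, summed to 128239 to 135392 CPM in normal control, 20134 to 48442 CPM in DEN model and 92488 to 130445 CPM in PZH administration rats. Most of this was Alb, which averaged 94940 CPM in normal control, 21996 CPM in DEN model and 81067 CPM in PZH administration rats. Within the DEN model group, M17 had the highest hepatocyte sum and the lowest sum of the 8 duct markers. Of these 8 hepatocyte genes 5 were called lower in the DEN model group and 4 higher after PZH, against 20.5% and 8.72% of all tested genes. The 6 stellate cell and myofibroblast genes summed to 123 to 154 CPM in normal control, 480 to 1534 CPM in DEN model and 224 to 274 CPM in PZH administration rats, with M17 again lowest and M24 highest of the DEN model rats. Col1a1 was a large part of the DEN model sums, with a mean of 546 CPM (SD 448). In the DEN model group 5 of the 6 were higher, and 4 were lower after PZH, against 25.3% and 10.3% of all tested genes. Their part in the marker levels was not tested.

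The 9 macrophage genes, listed because Spp1 is also a macrophage product, summed to 586 to 1091 CPM in normal control, 642 to 871 CPM in DEN model and 329 to 726 CPM in PZH administration rats, ranges that overlap. Gpnmb (log2 fold change 2.89) and Trem2 rose in the DEN model group, and the resident macrophage genes Marco (-2.72), Clec4f (-1.28) and Cd5l (-0.998) were lower. Under library totals 5 of the 9 were called higher and 1 lower, where 57% and 6.73% of all tested genes were. After PZH 4 of the 9 were lower and 0 higher, against 10.3% and 8.72% of all tested genes. These 4 were Gpnmb (-1.58), Csf1r (-0.99), Cd68 (-0.95) and Adgre1 (-0.84). Trem2 had 0 counts in all normal control rats and had 43, 16 and 46 counts in M13, M17 and M24 and 22, 0 and 0 counts in G27, G28 and G42. Of the 6 B cell and neutrophil genes with a row in the file, which include cells that carry CD24, the sum was 2.602 to 3.67 CPM in normal control, 12.0 to 24.0 CPM in DEN model and 3.13 to 4.61 CPM in PZH administration rats. S100a8 and S100a9, of neutrophils, accounted for both calls in the DEN model group and for both after PZH, and Mpo had 0 counts in all normal control rats. The 3 endothelial genes found summed to 170 to 201 CPM in normal control, 131 to 219 CPM in DEN model and 158 to 225 CPM in PZH administration rats. Vwf was higher (2.48) and Lyve1 lower (-0.70) in the DEN model group, and Vwf was lower after PZH (-0.85). The Lyve1 call was lost under library totals.

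Gut epithelium shares several markers with bile ducts, Epcam, Cftr and Prom1 among them. The 5 gut genes found summed to 189 to 212 CPM in normal control rats, nearly all of it Cdh17, which liver also makes, to 47.8, 54.2 and 348 CPM in M13, M17 and M24, and to 28.7 to 131 CPM in PZH administration rats. Cdh17 averaged 99.2 CPM (SD 151) in DEN model rats and 85.9 CPM (SD 51.7) in PZH administration rats. It made up most of the sum in M24 and did not pass the test in any comparison. Cdx2, a transcription factor of intestine, had 422 counts in M24, 16 in M13 and 2 in M17, between 0 and 2 in the normal control rats and 0 in all PZH administration rats. Gucy2c, a receptor of gut epithelium, had 0 counts in all normal control rats and 276, 784 and 774 counts in M13, M17 and M24. It had 24, 22 and 178 counts in G27, G28 and G42, and its change after PZH against the DEN model group did not pass. Vil1 (log2 fold change 6.08) rose in the DEN model group and fell after PZH (-3.16). The part of tumour, gut-like, macrophage or blood cell RNA in the marker levels was not tested.

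**Figure D5:**
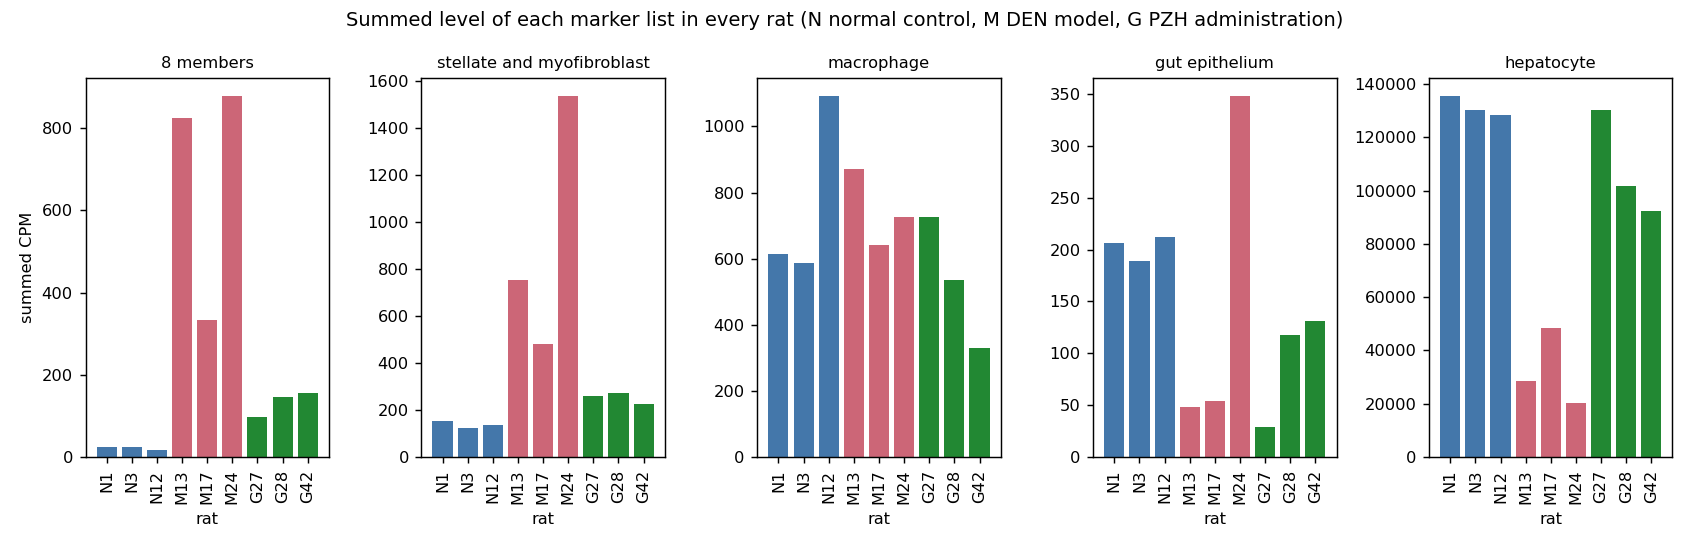
Summed CPM of the 8 markers and of 4 cell type lists in each rat, with bars from 0 and a separate axis per list. The 8 markers reach 334 to 878 CPM in DEN model rats, in which the hepatocyte sum is 20134 to 48442 CPM. In the gut list M24 stands apart at 348 CPM, most of it Cdh17, which liver also makes.

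Over the 9 rats, 12752 other tested genes with an official symbol were ranked by likeness to the mean profile of the 8 markers, as the root mean square difference of standardised log2(CPM + 1) values. Among the 10 closest were Fat1 (0.0958), Col12a1 (0.0973), Fblim1 (0.0986) and Cxcl16 (0.0994), then Ncaph, Tmbim1, Rims2, Plod2 and Emp2 at up to 0.103. The median over all genes ranked was 1.27. Of the 8 markers, Sox9 was closest to the common profile (0.111) and Krt7 farthest from it (0.363).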

How the data were processed

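The authors deposited 1 table of rat genes. In its count columns the authors deposited whole read numbers, without normalization. Its FPKM columns were deposited beside them. In each of 14102 genes checked, FPKM followed counts over library total by the same factor in all rats with at least 20 counts, within 0.001. The transcript lengths behind that factor were not checked. The submitters' processing notes name fastp, HISAT2 2.1.0, StringTie 1.3.3b and edgeR 3.30.3, and the genome build is not given in the sources used here. Further columns hold the authors' group means, fold changes and p-values, and were not used.

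Counts were tested in R 4.3.3 with edgeR 4.0.16 (filterByExpr, TMM, glmQLFit and glmQLFTest) using 6 rats a comparison and no covariates, and intervals are 95% intervals of the fit. CPM use TMM factors over 9 rats. Counting intervals and the floor of 3 counts cover counting error only. The test was also tried on simulated counts with known changes, at a fixed spread between rats that need not be that of these data. Alternatives were DESeq2 1.42.0, library totals, other filters, 1 fit of all groups, limma 3.58.1 on log2 FPKM and leaving out each rat. The members and lists were chosen with earlier results of these data known. Named genes are the 8 members, examples of largest and smallest change or of known role from each list, and genes among the 10 most like the members. Some genes these rules select are not reported here. Examples outside that rule were chosen after their values were seen. Pkhd1, Sox4, Cd79a, Muc2 and Pecam1 were not analysed here.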

Additional observations from a re-analysis of the deposited data

How the results depend on the processing

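Every direction of change of the 8 markers was the same under all alternatives run. In the DEN model group all 8 were called under each alternative, including 8 when any 1 rat was left out. The share of all tested genes called higher there ran from 18.6% without a filter on low counts to 57% with library totals. For PZH administration against DEN model rats the number called lower was 8 with DESeq2, library totals, the other filters, 1 fit of all groups and the limma fits. It was 3 at a log2 fold change beyond 2 in size with P under 0.001, and 3 to 8 when 1 rat was left out. The share of all tested genes called lower was 9.66% with DESeq2, 39.8% with library totals and 10.2% in 1 fit of all groups. It was 6.97% without a filter on low counts and 9.76% at a mean of at least 10 counts. With limma it was 28.9% on log2(FPKM + 1), 30.3% on log2(FPKM + 0.1) and 20% on log2(FPKM + 1) without a filter. For PZH administration against normal control rats the number called higher was 8 with DESeq2, library totals and the other count filters, 7 in 1 fit of all groups and 6 at those limits. It was 5 with limma on log2(FPKM + 1), 5 on log2(FPKM + 0.1), 4 on log2(FPKM + 1) without a filter and 5 to 8 when 1 rat was left out. The share of all tested genes called higher there was 4.81% with DESeq2, 6.13% with library totals and 5.77% in 1 fit of all groups. It was 3.14% without a filter on low counts and 3.89% at a mean of at least 10 counts. The 3 limma fits gave 2.95%, 3.4% and 1.33% in the order named. Over all genes, library totals changed the calls from 3612 higher and 2917 lower to 8120 and 959 in the DEN model group, from 1245 and 1477 to 556 and 5676 for PZH administration against DEN model rats, and from 543 and 153 to 818 and 91 against normal control rats. Limma on log2(FPKM + 1) gave 8350 and 955, 507 and 4997, and 470 and 56 in the same order. DESeq2 gave 936 higher and 388 lower against normal control rats. Limma on log2(FPKM + 0.1) gave 8620 and 970, 525 and 5239, and 541 and 63, and without a filter on log2(FPKM + 1) 8244 and 910, 418 and 4103, and 259 and 23. One fit of all groups gave 836 and 164 for PZH administration against normal control rats, where leaving out 1 rat took the number called in either direction from 696 to between 207 (without N1) and 1326 (without G27). No paired analysis was possible because the rat numbers are not shared between groups. With 3 counts over all normal control rats, Krt7 had the widest standard error of the 8 against normal control rats, 1.20 on the log2 scale in the DEN model group.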
